A study of Mus musculus with 4 samples.

Results

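The MYC, MAX and MXD network is a set of basic helix-loop-helix leucine zipper transcription factors, and its 10 members were taken here by gene symbol from the 55487 genes of the deposited tables. Mxi1 was picked for its higher count in Rbfox2 cKO cells, so its fold change is given as a description with no test, and the other 9 members were added as its partners, activators and repressors. RNA-seq was run on satellite cells, muscle stem cells that express Pax7, directly after isolation, with 2 Rbfox2 cKO and 2 Control libraries. The cKO animals carried floxed Rbfox2 alleles, the tamoxifen-inducible Pax7CreERT2 driver and a Rosa26 EYFP reporter, so deletion was aimed at Pax7-expressing cells. The alleles and injections of the Control animals are not stated beyond the genotype Control, and the labels give neither age nor whether libraries came from separate animals, so the spread between libraries may be technical. Rbfox2 encodes a splicing regulator, and the series addresses its role in Notch signalling during muscle stem cell activation.

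MYC, MYCN and MYCL activate transcription as dimers with MAX, binding the E-box sequence CACGTG, and drive ribosome production, metabolism and cell division. MXD1, MXI1, MXD3, MXD4 and MNT also dimerise with MAX and occupy the same sites, where they recruit the SIN3 and histone deacetylase corepressor. MLX is a MAX-like protein that pairs with the nutrient-responsive factors MLXIP and MLXIPL, and also with MXD1, MXD4 and MNT. In many tissues MYC marks cells entering growth, whereas MXD proteins are found as cells leave the cell cycle.

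The run names in the labels carry the code L01 for cKO 1 and Control 1 and L02 for cKO 2 and Control 2. The labels do not explain it, and each code holds 1 library of either group. Total estimated counts lay between 68884091 and 101997422 per library. Low-level signal was highest in cKO 1, which also had the lowest total. The median of 1739 genes for olfactory or vomeronasal receptors, in TPM (a transcript level scaled for length and library), was 0.679 in cKO 1 and 0.239 in cKO 2, against 0.340 and 0.407 in Control 1 and 2. Rbfox2 stood at 40.04 and 15.2 CPM (read counts scaled to library size by the TMM method) in cKO 1 and 2, against 131.3 and 56.0 CPM in Control 1 and 2. The satellite cell markers Sdc4, Vcam1 and Myf5 were abundant in all 4 libraries, at 11862.5 to 18637, 1829 to 3302 and 720 to 1277 CPM. They are the most abundant of 10 such markers, of which 0 were called in either direction. Of the 10, 7 had a log2 fold change below 0 (70%, against 57.2% of genes with a mean of at least 4 CPM), with a median of -0.17. Of 7 erythroid markers 5 were called higher in cKO, against 0.364% of all genes tested. The other 2 were not called and had a log2 fold change below 0. The summed level of the 7 was 1800 and 1471 TPM in cKO 1 and 2, against 337 and 764 TPM in Control 1 and 2.

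Promoter sequences are shown first, because MAX dimers act through the E-box and because Mxi1 is annotated with separate promoters. RefSeq windows on GRCm38.p6, from 250 bases before to 50 bases after a start site, matched 9 of the 10 members, all but Myc. A CACGTG E-box, which reads the same on both strands, lay in the windows of 4 of these 9, Max, Mlx, Mnt and Mxd4, and in 7.15% of all 32851 windows. It was not found in the windows of Mxd1, Mxd3, Mycl, Mycn or Mxi1. The stretches around the 4 E-boxes are given 5′ to 3′ on the strand of the gene, with the E-box in capitals.
Max, bases 236 to 265 of the window: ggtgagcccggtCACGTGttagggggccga
Mlx, bases 199 to 228 of the window: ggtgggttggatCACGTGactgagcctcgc
Mnt, bases 116 to 145 of the window: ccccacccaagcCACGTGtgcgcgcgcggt
Mxd4, bases 20 to 49 of the window: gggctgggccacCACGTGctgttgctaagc
The windows lie at chr12:76962199-76962498 on the minus strand for Max, chr11:101087040-101087339 on the plus strand for Mlx, chr11:74830674-74830973 on the plus strand for Mnt and chr5:34187661-34187960 on the minus strand for Mxd4. These matches describe the sequence and do not show that a factor binds.

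Mxi1 had 3 RefSeq windows, a distal one and 2 proximal ones that overlap at their ends. The FoxO motif GTAAACA, searched on both strands, was present in the most downstream of them, and in 3.65% of all windows. It is in capitals below, and it does not overlap an E-box. The core motif of hypoxia-inducible factor, ACGTG or GCGTG on either strand, was present once in each proximal window and not in the distal one, against 43.8% of all windows. Every CACGTG E-box also contains that core. The sequences are 5′ to 3′ on the plus strand.
Mxi1 distal, chr19:53310256-53310555: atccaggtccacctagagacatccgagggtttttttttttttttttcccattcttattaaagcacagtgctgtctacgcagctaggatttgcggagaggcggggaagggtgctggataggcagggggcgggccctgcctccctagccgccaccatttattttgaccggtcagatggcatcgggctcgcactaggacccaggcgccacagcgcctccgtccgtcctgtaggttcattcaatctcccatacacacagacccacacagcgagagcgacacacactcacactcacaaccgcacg
Mxi1 proximal, chr19:53329163-53329462: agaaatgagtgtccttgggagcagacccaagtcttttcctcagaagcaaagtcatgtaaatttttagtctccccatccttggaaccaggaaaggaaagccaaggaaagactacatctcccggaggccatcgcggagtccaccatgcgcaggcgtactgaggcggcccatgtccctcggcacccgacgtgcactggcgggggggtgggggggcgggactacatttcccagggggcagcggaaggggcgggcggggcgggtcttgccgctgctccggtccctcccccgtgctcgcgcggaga
Mxi1 proximal, chr19:53329445-53329744: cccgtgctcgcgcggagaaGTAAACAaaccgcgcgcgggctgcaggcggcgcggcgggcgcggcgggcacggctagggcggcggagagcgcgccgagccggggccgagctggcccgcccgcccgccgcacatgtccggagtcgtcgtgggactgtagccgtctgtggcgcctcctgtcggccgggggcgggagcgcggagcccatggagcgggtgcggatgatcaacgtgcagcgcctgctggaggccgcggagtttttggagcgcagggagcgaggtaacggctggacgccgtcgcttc

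In both groups Myc transcripts stood far above those of every other member on the TPM scale. Myc (ENSMUSG00000022346.15, chromosome 15, 61985391 to 61990374, plus strand), the growth-promoting activator of the network, had 1214 and 1247 TPM in cKO 1 and 2, against 1211 and 1233 TPM in Control 1 and 2. The 4 values were nearly equal, the groups overlapped, and Myc ranked between 94 and 107 among all genes of each library. Its normalised counts were 1045 and 1539 CPM in cKO 1 and 2, against 1381 and 1397 CPM in Control 1 and 2, so that the cKO libraries lay on either side of Control. The log2 fold change in count was -0.10 (SE 0.39, with an adjusted p of 1.00 by the quasi-likelihood test of edgeR). That value turned to 0.16 without cKO 1 and to 0.02 with library totals only, and it was -0.48 without cKO 2. Within L01 the log2 ratio of CPM was -0.40 and within L02 it was 0.14. The value without cKO 2 passed the threshold (adjusted p = 0.0470 in edgeR), in a fit where the median log2 fold change of the 10579 genes with a mean of at least 4 CPM was -0.38. The TPM of Myc was near level between the cKO libraries, at 1214 and 1247, and a shift in TPM over those genes was not computed.

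Other MYC genes were much lower. Mycn, the paralog best known from neural and embryonic progenitors, had 9.29 and 6.98 TPM in cKO 1 and 2, against 6.13 and 6.91 TPM in Control 1 and 2, with a log2 fold change in count of 0.10 (SE 0.32, adjusted p = 1.00 in edgeR). Both cKO values were above both Control values in TPM, cKO 2 by little, while in CPM the groups overlapped. Mycl, the third paralog, had 20 and 19 counts in cKO 1 and 2, against 36 and 28 counts in Control 1 and 2. Its 0.143 and 0.551 TPM in cKO 1 and 2, against 0.217 and 0.164 TPM in Control 1 and 2, were below the receptor gene median of the same library in all but cKO 2. Both cKO libraries were lower than both Control libraries in CPM, whereas TPM overlapped, and the log2 fold change of -0.84 (SE 0.75, adjusted p = 1.00 in edgeR) became 0.88 once the change in transcript length was taken out. Of the summed TPM of the 3 MYC genes, Myc made up between 99.2% and 99.5% in each library.

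**Figure D1:**
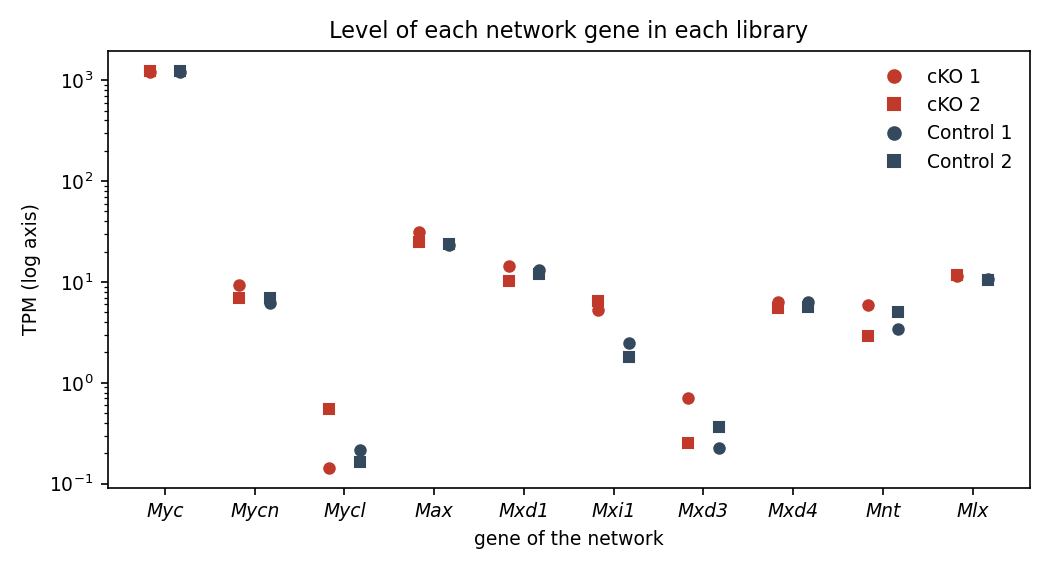
Level of each of the 10 network genes in TPM on a log axis, with 1 point per library and cKO left of Control. Myc is between 1211 and 1247 TPM in all 4 libraries, and Mxi1 has both cKO points, at 5.25 and 6.48 TPM, above both Control points, at 2.46 and 1.80 TPM.

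Max, the partner shared by MYC, MXD and MNT proteins, was the second most abundant member. It had 31.6 and 24.9 TPM in cKO 1 and 2, against 23.5 and 24.0 TPM in Control 1 and 2. The level in cKO 1 was the highest, and cKO 2 was above both Control libraries by little, so the groups did not overlap in TPM. Counts gave 24.2 and 27.1 CPM in cKO 1 and 2, against 24.5 and 24.6 CPM in Control 1 and 2, which put the log2 fold change at 0.06 (SE 0.32, adjusted p = 1.00 in edgeR). Myc exceeded Max by a TPM ratio, summed over the 3 MYC genes, of 38.7 and 50.5 in cKO 1 and 2, against 51.8 and 51.5 in Control 1 and 2. Transcript levels do not measure the proteins, so these ratios say nothing of how much MAX was free.

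Mxi1, a MAX-binding repressor of the MXD family, was the member that stood out. Mxi1 (ENSMUSG00000025025.14, chromosome 19, 53310518 to 53375810, plus strand) had 661 and 1039 counts in cKO 1 and 2, against 221 and 173 counts in Control 1 and 2. Normalised, this was 7.59 and 11.6 CPM in cKO 1 and 2, against 2.79 and 2.098 CPM in Control 1 and 2, with means of 9.62 ± 2.86 and 2.44 ± 0.49 CPM (SD, n = 2 each). The groups did not overlap, and the log2 fold change of 1.98 (SE 0.34) is the value for which the gene was picked. Within L01 the log2 ratio of CPM was 1.45 and within L02 it was 2.47. On the TPM scale Mxi1 had 5.25 and 6.48 in cKO 1 and 2, against 2.46 and 1.80 in Control 1 and 2, a log2 ratio of means of 1.46. The distance between the groups was thus smaller per length than in counts.

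Of the 10 members, all of which passed the filter on low counts, 1 was called higher in cKO (Mxi1) and 0 lower, where called means an adjusted p of at most 0.05 in edgeR. Over all 38143 genes tested, 0.364% were called higher and 0.186% lower, and because Mxi1 was chosen on this contrast nothing is read from its being the member called. At an unadjusted p under 0.05 none of the other 9 members passed either. For limma on log2(TPM + 1), which tested 8 of the members, 0 were called, against 0.308% of all 17210 genes tested, of which 0.209% were higher and 0.0988% lower. The adjusted p of the 7 tested members other than Mxi1 lay between 0.56 and 0.98 in limma. The groups did not overlap in CPM for 3 of the 10 members, Mxi1 above and Mxd1 and Mycl below Control, against 31.3% of all genes tested, 18% with cKO higher and 13.3% with cKO lower. In TPM they did not overlap for Mycn, Max, Mxi1 and Mlx, each with cKO higher. The share over all genes was not counted in TPM, so nothing is read from this.

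**Figure D2:**
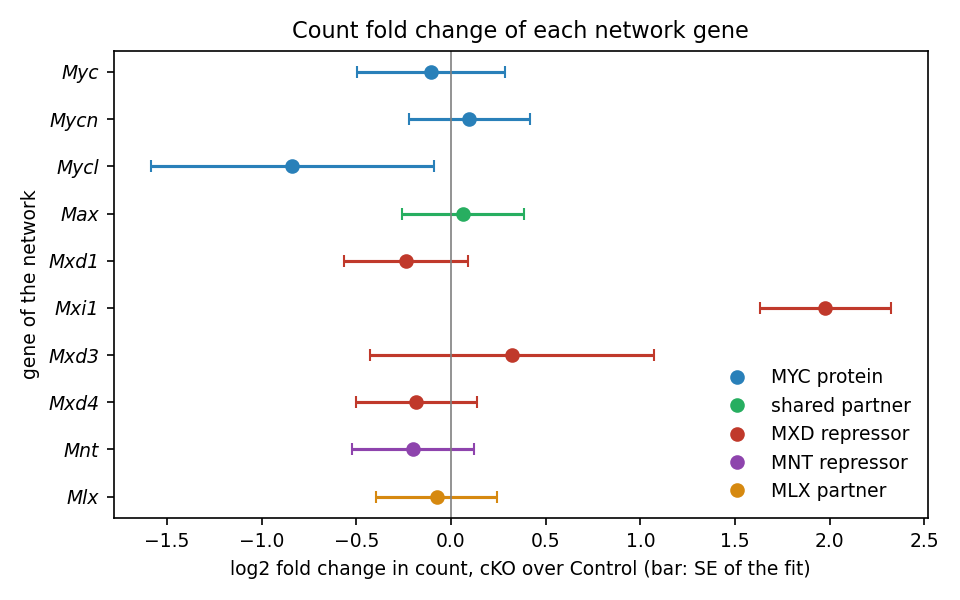
Log2 fold change in count of each network gene, cKO over Control, from the edgeR fit of all 4 libraries, with bars of 1 SE and colours by role. Mxi1 is at 1.98, and the other 9 members lie between -0.84 and 0.32 with bars that reach or come near 0.

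The other MXD genes did not share the position of Mxi1. Mxd1, the founding MXD repressor, induced in differentiating cells, was the most abundant of them, with 14.3 and 10.3 TPM in cKO 1 and 2, against 13.2 and 12.1 TPM in Control 1 and 2. In CPM it was lower in both cKO libraries, at 27.4 and 28.7 CPM, against 34.7 and 31.4 CPM in Control 1 and 2, which put the log2 fold change at -0.24 (SE 0.33, adjusted p = 1.00 in edgeR), while in TPM the groups overlapped. Mxd4, linked to quiescent and differentiating cells, had 6.27 and 5.54 TPM in cKO 1 and 2, against 6.37 and 5.71 TPM in Control 1 and 2, with overlapping groups and a log2 fold change in count of -0.18 (SE 0.32, adjusted p = 1.00 in edgeR). Mxd3, the family member tied to S phase in proliferating progenitors, had 37 and 20 counts in cKO 1 and 2, against 18 and 24 counts in Control 1 and 2, a log2 fold change of 0.32 with an SE of 0.75 (adjusted p = 1.00 in edgeR). Its 0.710 and 0.254 TPM in cKO and 0.227 and 0.367 TPM in Control lay close to the receptor gene medians, so it was barely detectable above the low-level signal.

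Mnt, a larger MAX-binding repressor expressed in cycling and resting cells alike, had 5.98 and 2.92 TPM in cKO 1 and 2, against 3.44 and 5.003 TPM in Control 1 and 2. The spread within each group was wider than the distance between them, and the log2 fold change in count was -0.20 (SE 0.32, adjusted p = 1.00 in edgeR), turning to 0.04 without Control 2. Mlx, the MAX-like partner of the Mondo factors, was steady, with 11.4 and 11.7 TPM in cKO 1 and 2, against 10.8 and 10.5 TPM in Control 1 and 2. Both cKO libraries were a little above both Control libraries in TPM, but counts overlapped, and the log2 fold change was -0.08 (SE 0.32, adjusted p = 1.00 in edgeR). It turned positive with library totals only, with the stricter count filter and without cKO 1, at 0.04, 0.01 and 0.21. The log2 ratio of CPM, cKO over Control, had opposite signs in L01 and L02 for Mlx (-0.42 and 0.20), Mxd4 (-0.47 and 0.08), Mnt (0.23 and -0.62), Mxd3 (0.91 and -0.38) and Max (-0.02 and 0.14). It had the same sign in both for Mycn (0.12 and 0.08), Mycl (-0.98 and -0.67) and Mxd1 (-0.34 and -0.13).

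Ordered by mean TPM, the network in cKO ran Myc, Max, Mxd1, Mlx, Mycn, Mxd4, Mxi1, Mnt, Mxd3 and Mycl, with the ranges of Mxd1 and Mlx, of Mxd4 and Mxi1, of Mxi1 and Mnt and of Mxd3 and Mycl overlapping. In Control it ran Myc, Max, Mxd1, Mlx, Mycn, Mxd4, Mnt, Mxi1, Mxd3 and Mycl, where Mycn and Mxd4 overlapped but Mxd1 and Mlx, Mxd4 and Mnt, and Mnt and Mxi1 did not. Mxi1 thus stood level with Mxd4 in cKO and below both Mxd4 and Mnt in Control. As a share of the summed TPM of the 4 MXD genes, Mxi1 made up 19.8% and 28.7% in cKO 1 and 2, against 11.1% and 9.03% in Control 1 and 2. Mxd1 remained the largest part, with 53.8% and 45.7% in cKO 1 and 2, against 59.2% and 60.5% in Control 1 and 2. With Mnt added, the repressors together had 32.5 and 25.5 TPM in cKO 1 and 2, against 25.6 and 24.9 TPM in Control 1 and 2, which is 1.03 and 1.03 times Max in cKO and 1.09 and 1.04 times Max in Control. Relative to Max, which was highest in cKO 1, this total was not above Control. The 4 MXD genes without Mnt summed to 26.5 and 22.6 TPM in cKO 1 and 2, against 22.2 and 19.9 TPM in Control 1 and 2. That sum was higher in both cKO libraries. With Mxi1 also left out it was 21.2 and 16.1 TPM in cKO 1 and 2, against 19.8 and 18.1 TPM in Control 1 and 2, with overlapping groups.

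Counts of this kind carry the mean length of a gene's transcripts, since the count divided by the TPM gives that length once scaled on genes with a single transcript. For Mxi1 the mean length was 3281 and 2800 bases in cKO 1 and 2, against 1903 and 1982 bases in Control 1 and 2, a log2 ratio of 0.65. Both cKO libraries were far above both Control libraries. Among 11102 genes with several annotated transcripts and at least 100 counts in every library, 0.189% had a ratio at least as high with no overlap between groups. The mean length enters the count from which Mxi1 was picked, so the difference is a description and carries no test. Lengths did not overlap between groups for 5 of the 8 members with enough counts, Mxi1 longer and Mycn, Max, Mxd1 and Mlx shorter in cKO, against 38.5% of those 11102 genes, 13.2% longer and 25.3% shorter. The 7 members other than Mxi1 had log2 ratios between -0.07 and 0.01, for example Myc with 1953 and 1923 bases in cKO 1 and 2, against 1913 and 1928 bases in Control 1 and 2.

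GENCODE M21 lists 9 Mxi1 transcripts of 833 to 5036 bases, and Mxi1-202 is the only one longer than 2627 bases. It starts at a proximal promoter, at 53329458, and its last exon runs from 53371573 to 53375810, which is 2517 bases past the end of Mxi1-201 (53373293), the next furthest. The coding part of that exon ends at 53371733 in each of the 7 coding transcripts that use it, so the added stretch is 3′ untranslated sequence. Taken with this annotation, a mean length above 2627 bases cannot be reached without Mxi1-202. Its share of Mxi1 transcripts would be at least 27.1% and at most 58.2% in cKO 1, and at least 7.20% and at most 46.8% in cKO 2, against at most 25.5% in Control 1 and 27.3% in Control 2. The bounds of cKO 1 lie above that of Control 1 but meet that of Control 2, and those of cKO 2 overlap both. The annotation release behind the deposited values is not given in the sources used here, and the shares of single transcripts were not measured. No other value here separates the distal from the proximal promoter.

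**Figure D3:**
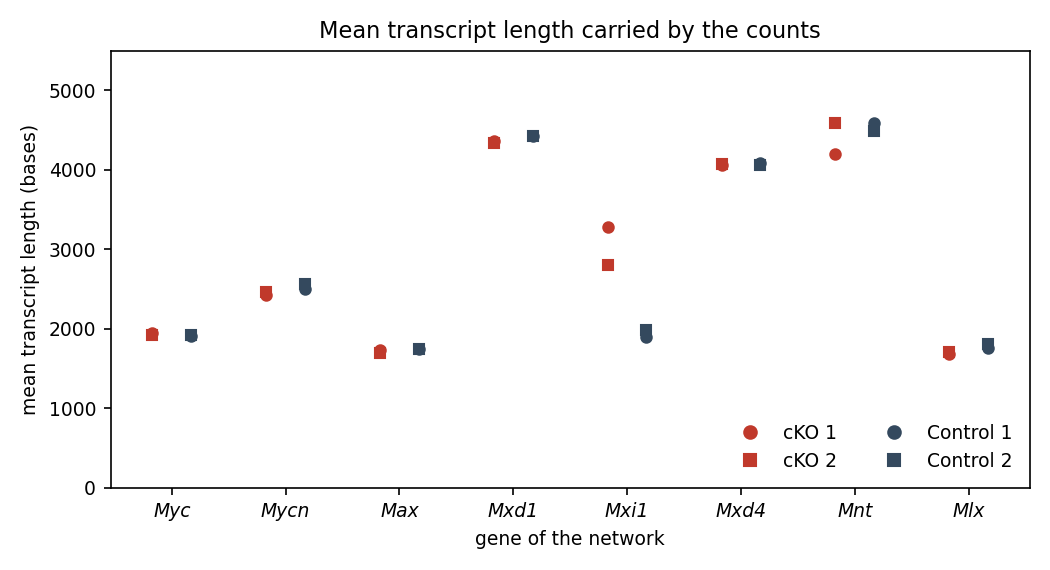
Mean transcript length in bases of the 8 network genes with at least 100 counts in every library, 1 point per library and cKO left of Control. Mxi1 is at 3281 and 2800 bases in cKO and at 1903 and 1982 bases in Control, while for the other 7 genes the groups lie close together.

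With the change in length taken out of the counts, the log2 fold change of Mxi1 was 1.35 in place of 1.98. Across the 12 other settings of the count fit the value lay between 1.35 and 2.27. All of them reuse the libraries on which Mxi1 was picked, so this is a description with no test. Leaving out 1 library gave 2.27 (no cKO 1), 1.57 (no cKO 2), 2.19 (no Control 1) and 1.77 (no Control 2).

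**Figure D4:**
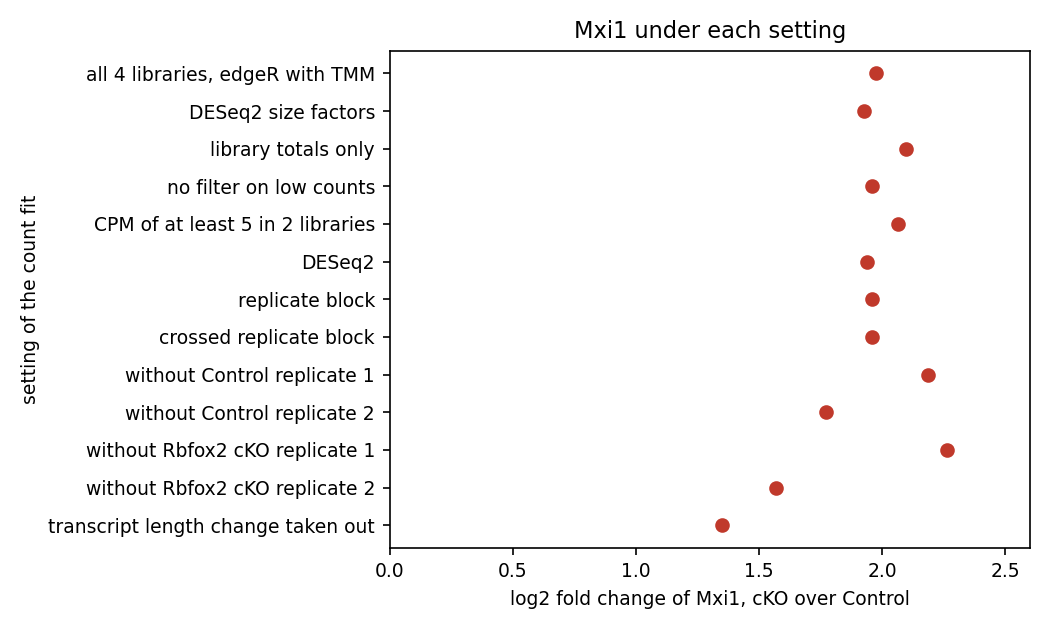
Log2 fold change of Mxi1 in count, cKO over Control, under each setting of the fit, as points with no error bar. All points lie between 1.35, with the transcript length change taken out, and 2.27, without Rbfox2 cKO replicate 1.

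Genes that overlap a member could have lent it reads, because the strand setting is not given in the sources used here. Within Mxi1, AC133451.2 on the opposite strand had 2.17 and 0.514 TPM in cKO 1 and 2, against 0.741 and 0.788 TPM in Control 1 and 2. It lies between the annotated Mxi1 exons that end at 53313301 and start at 53329413, so its level does not bear on reads in Mxi1 exons. Gm10197, across the start of the last Mxi1 exon on the opposite strand, was between 0 and 0.173 TPM. Mxd3 shares 105 bases with Prelid1 on the opposite strand, which at 39.9 and 41.0 TPM in cKO 1 and 2, against 49.7 and 49.0 TPM in Control 1 and 2, was far more abundant, so the low Mxd3 values are uncertain. None of the 3 nearest tested genes on each side of Mxi1 was called. Add3, a membrane skeleton adducin 63119 bases before it, had a log2 fold change of 0.34, and Smndc1, a splicing factor 3580 bases after it, of -0.02 (adjusted p = 1.00 for each in edgeR). The other 4 neighbours, AC138174.2, 1700001K23Rik, AC133451.1 and Mirt1, were at or below 1.06 CPM in every library.

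The genes whose log2 CPM, centred over the 4 libraries, lay nearest to that of Mxi1 were Zfand5, Slc25a51, Kng2, Mdfic and Gm44502, at Euclidean distances of 0.26 to 0.48. Zfand5, a zinc finger protein that binds ubiquitin and the proteasome, had 664 and 890 CPM in cKO 1 and 2, against 296 and 238 CPM in Control 1 and 2. Slc25a51, the mitochondrial NAD carrier, had 37.4 and 56.7 CPM in cKO 1 and 2, against 15.0 and 15.6 CPM in Control 1 and 2. Mdfic, which binds the MyoD family, had 61.9 and 83.3 CPM in cKO 1 and 2, against 24.2 and 27.1 CPM in Control 1 and 2. The mean transcript length of Mdfic and Slc25a51 was longer in both cKO libraries than in both Control libraries, with log2 ratios of 0.54 and 0.38. For Zfand5 the lengths were 6086 and 5934 bases in cKO 1 and 2, against 5987 and 4687 bases in Control 1 and 2, so the groups overlapped and Control 2 alone was short. The log2 ratio of Kng2 was 0.01, and Gm44502 differed by less still. The likeness rests on 4 libraries and selects genes with the same difference between groups.

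Of the 7 erythroid markers, 5 moved in the same direction as Mxi1 and 2 had a log2 fold change below 0. The globin genes Hbb-bs and Hba-a2 rose by log2 fold changes of 1.44 each and Alas2, which makes the haem precursor in red cells, by 1.77 (adjusted p = 0.0119 for Hbb-bs, 0.0124 for Hba-a2 and 0.000252 for Alas2 in edgeR). With the library number as a block, the adjusted p in edgeR was 0.173 for Hbb-bs, 0.122 for Hba-a2 and 0.00419 for Alas2. Within the groups the order of the summed erythroid TPM differed from that of Mxi1: it was higher in cKO 1 than in cKO 2 and higher in Control 2 than in Control 1, whereas Mxi1 TPM was higher in cKO 2 and in Control 1. In CPM the cKO order was shared for the globins, with Hbb-bs at 131 and 159 CPM in cKO 1 and 2, against 33.8 and 72.8 CPM in Control 1 and 2. In bulk RNA, more cells of a type and more RNA per cell cannot be told apart, and the part of red cell RNA in the Mxi1 difference was not tested. Of the other marker lists, 0 of 8 endothelial, 0 of 8 fibro-adipogenic, 0 of 8 macrophage and 0 of 10 muscle fibre markers were called in either direction, and the summed TPM was 193 and 160 in cKO, against 140 and 151 in Control, for endothelial, 1861 and 1658, against 1463 and 1658, for fibro-adipogenic, 70.2 and 58.8, against 41.5 and 49.6, for macrophage, and 740 and 551, against 654 and 679, for fibre markers. Desmin (Des), an intermediate filament gene, made up most of the fibre sum, and the other 9 fibre markers summed to 80.1 and 48.8 TPM in cKO 1 and 2, against 81.7 and 77.1 TPM in Control 1 and 2. Of the 10 fibre markers 9 had a log2 fold change below 0 (90%), with a median of -0.46, against 57.2% and -0.06 over genes with a mean of at least 4 CPM. For 8 of them both cKO libraries were lower in CPM than both Control libraries. This held for 13.3% of all genes tested and 22.6% of genes with a mean of at least 4 CPM. Log2 fold changes were above 0 for 6 of 8 endothelial, 6 of 8 fibro-adipogenic and 7 of 8 macrophage markers, with medians of 0.25, 0.22 and 0.29. In CPM both cKO libraries were above both Control libraries for 4, 3 and 2 of these, against 16.7% of genes with a mean of at least 4 CPM. They were below for 0, 1 and 1, against 22.6%. The part of RNA from fibres or from these cell types in the differences between groups was not tested. Myc is also an early response gene of cell isolation, and of 20 immediate early genes 0 were called, with Egr1 at 2895 and 3291 CPM in cKO 1 and 2, against 2874 and 3517 CPM in Control 1 and 2.

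Proteins that work with the network were then examined by list. Of 8 further partners 0 were called in either direction, with a median log2 fold change of 0.13. The median was 0.06 over all genes tested and -0.06 over genes with a mean of at least 4 CPM. Mlxip, the glucose-sensing partner of MLX also called MondoA, had 153 and 203 CPM in cKO 1 and 2, against 111 and 117 CPM in Control 1 and 2, a log2 fold change of 0.64 (adjusted p = 1.00 in edgeR), with no overlap between groups. Mga, the MAX-binding scaffold of a repressive Polycomb complex, had 47.0 and 73.6 CPM in cKO 1 and 2, against 76.5 and 70.5 CPM in Control 1 and 2, with overlapping groups. Of 15 MYC coactivators and 19 genes of the SIN3 and histone deacetylase corepressor, 0 were called in either direction, and the medians were 0.03 and -0.01. Among the corepressor genes Rbbp7, a histone-binding chaperone, stood at 318 and 505 CPM in cKO 1 and 2, against 570 and 515 CPM in Control 1 and 2. Of 18 genes of MYC protein turnover 0 were called (median -0.18), with Huwe1, a ubiquitin ligase for MYC, at 206 and 341 CPM in cKO 1 and 2, against 288 and 254 CPM in Control 1 and 2.

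Genes that MYC is known to activate held 1 called higher, 1 called lower and 70 not called out of 72. Over all genes tested, 0.364% were called higher and 0.186% lower. Ndufaf4, an assembly factor of respiratory complex I, fell to 22.8 and 35.3 CPM in cKO 1 and 2, against 120.9 and 43.3 CPM in Control 1 and 2, a log2 fold change of -1.50 (adjusted p = 0.00476 in edgeR), with Control 1 far above the other 3 libraries. Map3k6, a stress-activated kinase, rose to 228 and 144 CPM in cKO 1 and 2, against 67.2 and 77.7 CPM in Control 1 and 2, a log2 fold change of 1.36 (adjusted p = 0.0283 in edgeR). With the library number as a block neither was called (adjusted p = 0.440 for Ndufaf4 and 0.504 for Map3k6 in edgeR). The list had 59 of 72 log2 fold changes below 0 (81.9%) and a median of -0.27, against 57.2% and -0.06 over all genes with a mean of at least 4 CPM. The median log2 ratio to the Control mean was -0.53 in cKO 1 and -0.08 in cKO 2, against -0.30 and 0.12 over genes with a mean of at least 4 CPM, which leaves differences of -0.23 in cKO 1 and -0.20 in cKO 2. The groups did not overlap for 39 of the 72, cKO lower for 34 and higher for 5, against 22.6% and 16.7% of genes with a mean of at least 4 CPM.

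Genes that MYC is known to repress had 0 of 12 called and a median of 0.14. Of these 12, 10 had a log2 fold change above 0 and 2 below (16.7%, against 57.2% of genes with a mean of at least 4 CPM). The median log2 ratio to the Control mean was -0.08 in cKO 1 and 0.39 in cKO 2, against -0.30 and 0.12 over those genes. Ndrg1, a growth arrest gene, had 1843 and 2529 CPM in cKO 1 and 2, against 1876 and 1592 CPM in Control 1 and 2. Cdkn1a, the p21 cell cycle inhibitor, had 470 and 651 CPM in cKO 1 and 2, against 399 and 552 CPM in Control 1 and 2. For both genes the groups overlapped in CPM, while in TPM both cKO libraries were above both Control libraries. Of 6 targets of MLX and its Mondo partners 0 were called, with a median of 0.34. Txnip, the thioredoxin inhibitor that responds to glucose through MondoA, had 58.9 and 77.4 CPM in cKO 1 and 2, against 94.4 and 76.6 CPM in Control 1 and 2. Arrdc3, an arrestin-domain adaptor, had 291 and 821 CPM in cKO 1 and 2, against 313 and 259 CPM in Control 1 and 2, with cKO 2 alone high.

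MXI1 is a known target of hypoxia-inducible factor and of FoxO factors, so both target lists were counted. The part of either factor in the Mxi1 difference was not tested. Of 23 genes induced by hypoxia-inducible factor 0 were called, 18 had a log2 fold change below 0 (78.3%, against 57.2% of genes with a mean of at least 4 CPM) and the median was -0.30. The median log2 ratio to the Control mean was -0.62 in cKO 1 and -0.01 in cKO 2, against -0.30 and 0.12 over those genes. Its most abundant members were near level, Ldha with a log2 fold change of -0.15, Aldoa with 0.03 and Slc2a1 with -0.20 (adjusted p = 1.00 for each in edgeR). Of 20 FoxO targets 1 was called higher and 0 lower, against 0.364% and 0.186% of all genes tested, with a median of 0.14. Of these 20, 7 had a log2 fold change below 0 (35%, against 57.2% of genes with a mean of at least 4 CPM). Their median log2 ratio to the Control mean was -0.16 in cKO 1 and 0.26 in cKO 2, against -0.30 and 0.12 over those genes. Pink1, a kinase of mitochondrial quality control, rose by a log2 fold change of 1.24 (adjusted p = 0.0343 in edgeR), with 54.8 and 18.9 CPM in cKO 1 and 2, against 14.0 and 17.1 CPM in Control 1 and 2, so that cKO 1 alone was high. With the library number as a block its adjusted p in edgeR was 0.926.

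**Figure D5:**
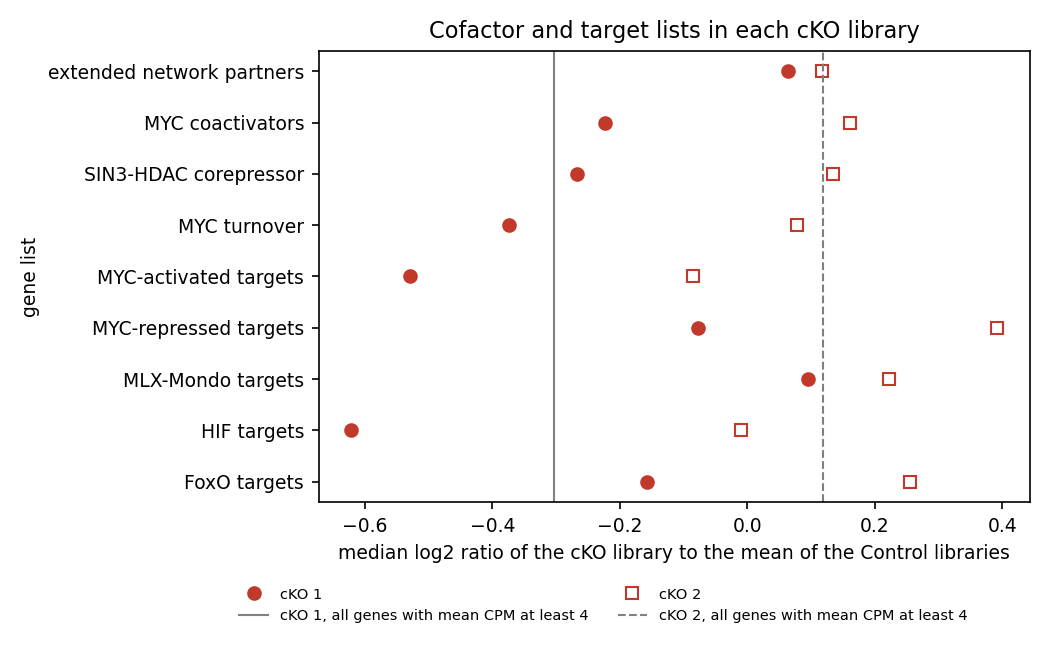
Median log2 ratio of each cKO library to the mean of the Control libraries for 9 lists of network partners, cofactors, targets and upstream pathways, with vertical lines for all genes with a mean of at least 4 CPM at -0.30 in cKO 1 and 0.12 in cKO 2. In cKO 1 the medians of the MYC-activated targets and of the targets of hypoxia-inducible factor are the lowest, at -0.53 and -0.62.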

How the data were processed

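RNA-seq of freshly isolated mouse satellite cells was taken from 2 Rbfox2 cKO and 2 Control libraries, made from total RNA with SMART-Seq cDNA and an MGI library kit, per the labels' protocols. Tools named in the submitters' processing notes are HISAT2 2.1.0 and StringTie 1.3.6, on GRCm38. Annotation release and strand setting: not given in the sources used here. The authors deposited estimated counts per gene, already whole numbers. They also deposited TPM per gene, which sum to the same total in each library and keep no depth. Among single-transcript genes with over 200 counts, the count over TPM and GENCODE M21 length was constant to 1% for 98.7% to 98.9%. Coordinates come from GENCODE M21, which held 55394 of the 55487 identifiers.

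The test on counts was that of edgeR 4.0.16 under R 4.3.3 (TMM, filterByExpr, robust quasi-likelihood test, group as the only term) over all genes, with Benjamini-Hochberg adjustment and a threshold of 0.05. The SE is the size of the log2 fold change over the square root of F. For TPM, limma 3.58.1 was run on log2(TPM + 1) where the mean reached 1 TPM, a scale that understates changes of low genes. DESeq2 1.42.0 was an alternative. The spread between libraries (common biological coefficient of variation 0.373), not counting error, limits precision. Libraries of a group differed by more than sampling noise (chi-square over degrees of freedom 83.5 for cKO and 49.6 for Control). The code was tested on simulated data, with changes set in genes with a mean of at least 4 CPM. It recovered 14% of 100 genes changed 2-fold and 95% of 100 changed 4-fold. A gene or list that was not called may therefore still differ. Members and the 16 gene lists were chosen with earlier results of these data known. The rule for names took all members, for each list up to 4 called genes with the smallest adjusted p or else up to 3 with the highest mean CPM, the 5 genes nearest to Mxi1 in centred log2 CPM with a mean CPM of at least 4, its 3 nearest tested genes on each side, and overlapping genes. Not every gene it takes is printed. Promoters are from RefSeq, GRCm38.p6.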

Additional observations from a re-analysis of the deposited data

How the results depend on the processing

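The estimate for Mxi1 was positive in each of the 12 alternative count fits, between 1.35 and 2.27. These fits reuse the libraries on which Mxi1 was picked, so they describe its dependence on the settings and give it no support. The number of members called was 1 with all libraries, 0 without the low-count filter and 0 under a stricter one (at least 5 CPM in 2 or more libraries), and 0 to 2 when a library was left out: 0 without Control 1 or Control 2, and 2 without cKO 2, where Myc was called lower. In limma on TPM, 0 members were called, and 1 (Mxi1) with no filter on mean TPM and without Control 1 (0 to 1 over the fits that left out a library). For all genes the number called was 210, and it was 119 with DESeq2 size factors, 28 with no filter, 14 with the stricter filter, 86 in DESeq2, 136 with transcript length taken out, and 51 to 2267 with a library left out (896 without cKO 1, 2267 without cKO 2, 51 without Control 1, 56 without Control 2). The share of calls that were higher in cKO was 66.2% with all libraries, 55.5% with DESeq2 size factors and 11.1% without cKO 2. Of the listed genes 8 were called, and 2 with DESeq2 size factors, 0 with no filter, with the stricter filter and in DESeq2, 4 with transcript length taken out, and 0 to 79 with a library left out (17 without cKO 1, 79 without cKO 2, 1 without Control 1, 0 without Control 2).

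A replicate block gave 96 genes, 2 listed genes (Alas2, and Cbx3, which was not called without it) and 1 member (Mxi1). The number goes with the run code, L01 for 1 and L02 for 2, which the labels do not explain, and deviations of same-numbered libraries correlated at -0.12. With the numbers crossed, a choice made after seeing the data, 243 genes were called. The ratios within each run code were also added after seeing the data.

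All members but Mxi1 and Mxd1 changed sign under some alternative, most from a value near 0, but Mycl and Mxd3 from -0.84 and 0.32. The log2 fold change of Myc was 0.017 with library totals only, that of Mycl 0.88 with length taken out, that of Max -0.00077 with DESeq2 size factors, and that of Mlx 0.042 with library totals only and 0.011 with the stricter filter. When a library was left out, the log2 fold change ranged over -0.48 to 0.16 for Myc, -0.050 to 0.18 for Mycn, -0.089 to 0.15 for Max, -0.20 to 0.64 for Mxd3, -0.44 to 0.00076 for Mxd4, -0.44 to 0.040 for Mnt and -0.48 to 0.21 for Mlx. Library totals alone moved the median log2 fold change of all genes to 0.25, against 0.06 with TMM. A fit without a library leaves 1 in its group, assumed to vary like the other group, and the cause of these shifts was not tested.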

Other observations

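The length carried by the counts was also compared over all called genes. Of the 139 genes called higher in cKO, 65 had several annotated transcripts and at least 100 counts in every library, and 6 of these (9.23%), Mxi1 among them, had a mean transcript length longer in cKO by more than 0.5 on the log2 scale, against 0.549% of all such genes. Of the 71 genes called lower, 44 had a value and 5 (11.4%) were shorter by more than 0.5, against 0.757% of all such genes. A longer mean transcript raises the count by construction. With the change in length taken out, 74 of the 139 and 38 of the 71 were still called. That fit also rescaled and refiltered the counts, and called 136 genes in all. Settings that left length as it was called 119 (DESeq2 size factors) and 86 (DESeq2). The part of length in the lost calls was not tested.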
